A study of Mus musculus with 12 samples.

Results

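Myeloid C-type lectin receptors are surface proteins with which phagocytes and their progenitors bind sugars, fungal and mycobacterial cell wall components, and products of dead cells. The 9 genes described here are Clec12a, Clec4a2, Clec4d, Clec4e, Clec4n, Clec5a, Clec7a, Clec10a and Mgl2. They were taken by symbol from a table of 24411 symbols, and all 9 were present. Of these, 8 passed the low-count filter, as did 11578 of all symbols, and Clec10a did not. Clec4n passed through the group in which it was highest, so counts that hold it are also given without it.

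RNA was measured in HoxB8 cells, mouse bone marrow progenitors kept immature by a Hoxb8 that needs estrogen, from which estrogen had been withdrawn for 24 h. All groups carried a pair of vectors. pMIG was empty or held Asxl1-MT2, a truncated form of the chromatin regulator Asxl1, and pMICH was empty or held CSF3R-T618I, a mutant receptor for granulocyte colony-stimulating factor. The 4 groups were the control with both vectors empty (Empty/Empty), the mutant receptor alone (Empty/T618I), the truncation alone (Asxl1-MT2/Empty) and both (Asxl1-MT2/T618I), with 3 libraries each, written A, B and C after the letters of the deposited columns. Both proteins were overexpressed in a single immortalised cell type, and the labels do not say whether a group was a clone or a pool, or whether its libraries came from separate cultures.

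Total counts lay between 9341984 and 10252291 per library. Levels are given in CPM, counts scaled to a common library total, as mean ± SD with n = 3. Asxl1 was at 1744 ± 79.8 CPM with the truncation alone and 1004 ± 83.7 with both constructs, but at 119 ± 4.53 for Empty/Empty and 149 ± 16.9 for Empty/T618I. Socs3, a feedback inhibitor induced by CSF3R signalling, lay between 11.9 and 13.8 CPM in the Empty/Empty libraries and between 151 and 176 in Empty/T618I, which bears on 1 Empty/Empty library whose genotype label names T618I against its title. Csf3r was at 298 ± 57.6 CPM for Empty/Empty, 431 ± 39.3 for Empty/T618I, 293 ± 35.5 for Asxl1-MT2/Empty and 1329.8 ± 361 for Asxl1-MT2/T618I, and Hoxb8 at 661 ± 40.0, 291 ± 45.4, 720.0 ± 65.0 and 571 ± 13.5. Whether construct reads count to the mouse genes is not given. All 8 progenitor markers searched (Mpo, Elane, Prtn3, Ctsg, Ms4a3, Kit, Cd34 and Hoxb8) had counts in all 4 groups.

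The receptors differ in how they signal. Clec4e (Mincle), Clec4d (MCL) and Clec4n (Dectin-2) signal through the Fc receptor gamma chain, encoded by Fcer1g, and Clec5a (MDL-1) through DAP12 and DAP10, encoded by Tyrobp and Hcst. Clec7a (Dectin-1), the beta-glucan receptor, carries its own activating motif. All 5 lead to the kinase Syk and from there to Card9 and NF-kB. Clec12a (MICL) and Clec4a2 (DCIR) have inhibitory tails that recruit phosphatases such as SHP-1, the product of Ptpn6. Clec10a and Mgl2 are the mouse galactose-type lectins of macrophages and dendritic cells, known for uptake of glycoproteins that carry galactose or N-acetylgalactosamine.

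Of these genes, 7 lie on chromosome 6 and 2 on chromosome 11 (GENCODE M21, GRCm38). Clec4a2, Clec4n, Clec4d and Clec4e lie together within 183.443 kb, from 123106428 to 123289870, and the facing ends of Clec4d and Clec4e are 6.523 kb apart. Clec12a and Clec7a are separated by 96.287 kb, Clec5a lies apart at 40574894 to 40585821, and Mgl2 and Clec10a lie 18.646 kb apart on chromosome 11. GENCODE M21 labels Clec7a a polymorphic pseudogene. No member shares exon bases with another counted gene. In the longest coding transcripts, 16.5% of the 50-base stretches of Mgl2 occur in another gene, chiefly Clec10a, and 8.31% of those of Clec4a2, chiefly in Clec4a4, so the values of these members, and of Clec10a with 10.6%, are less certain where the counting tool split or dropped shared reads.

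RefSeq promoter sequences (GRCm38.p6) were found for 7 of the 9 genes and were read over the 250 bases before the start. They were searched on both strands for GAGGAA, letters found in sites of the ETS factor PU.1. Of these 7 promoters, 6 held it and that of Clec4a2 did not, while 23.3% of 32851 promoters of the same length held it. The windows of Clec4a2 and Clec12a lie inside these genes as GENCODE M21 places them, with 68 and 250 of their bases in exons. Either window may thus not be the promoter used in these cells. A match is a description of the letters and shows no binding. All 8 tested members rose when Asxl1-MT2 was added to T618I, among them Clec4a2, whose RefSeq window held no match. A relation of these letters to expression was not tested. As examples, the promoters of the adjacent pair Clec4d and Clec4e and that of Clec7a follow 5′ to 3′ in the direction of the gene. GAGGAA or its complement TTCCTC is in capitals.
Clec4d, chr6:123261857-123262106, plus strand: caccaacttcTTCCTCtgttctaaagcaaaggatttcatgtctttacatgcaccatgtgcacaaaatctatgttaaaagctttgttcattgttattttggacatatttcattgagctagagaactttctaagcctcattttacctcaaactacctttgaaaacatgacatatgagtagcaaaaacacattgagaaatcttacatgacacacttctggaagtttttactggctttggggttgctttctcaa
Clec4e, chr6:123289872-123290121, minus strand: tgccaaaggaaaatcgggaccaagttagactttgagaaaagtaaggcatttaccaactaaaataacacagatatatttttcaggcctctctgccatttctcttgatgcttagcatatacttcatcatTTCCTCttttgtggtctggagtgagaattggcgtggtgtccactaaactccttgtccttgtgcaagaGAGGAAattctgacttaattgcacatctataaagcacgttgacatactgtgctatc
Clec7a, chr6:129472780-129473029, minus strand: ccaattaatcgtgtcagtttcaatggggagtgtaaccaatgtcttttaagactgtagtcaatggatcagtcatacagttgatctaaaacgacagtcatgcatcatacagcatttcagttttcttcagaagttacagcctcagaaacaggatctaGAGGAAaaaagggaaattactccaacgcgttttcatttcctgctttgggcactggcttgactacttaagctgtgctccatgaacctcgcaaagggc
The Clec4d and Clec7a windows hold 1 match each, and the Clec4e window holds 2.

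Clec12a had a further match, to the palindrome TTGCGCAA of C/EBP factors, which 0.164% of all promoters held and no other member did. This motif was picked after the sequence had been seen. The site is shown with its flanks and the palindrome in capitals, and it begins 140 bases before the RefSeq start, in a window that GENCODE M21 places in exons of Clec12a.
Clec12a, chr6:129350094-129350121, plus strand: taggagcaaaTTGCGCAActcgtatgaa
Matches to the STAT spacing TTCNNNGAA were found in the Clec4a2 window alone among the 7, against 7.02% of all promoters, and to the AP-1 letters TGANTCA in the Clec12a window alone, against 6.75%. GAGGAA can share bases with TTCNNNGAA, and each motif was counted on its own.

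The comparisons follow the 2 by 2 design. T618I was compared with its control in Empty cells and in Asxl1-MT2 cells, Asxl1-MT2 was compared with its control without and with T618I, and the interaction asked whether the log2 change with T618I differed between Asxl1-MT2 and Empty cells. These comparisons share groups of libraries and are not independent. A gene was called at a Benjamini-Hochberg adjusted p under 0.05 over all 11578 genes tested in edgeR's quasi-likelihood test. Changes are log2 fold changes with their standard error.

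All 8 tested receptors were higher when Asxl1-MT2 was added to T618I. Between Empty/T618I and Asxl1-MT2/T618I, 8 of 8 rose and 0 fell, and 7 of 7 without Clec4n, while 25.4% of all tested genes were called higher and 18.5% lower, 43.9% in all. The median change of the 8 was 2.07, or 1.94 without Clec4n, against 0.01 over all tested genes. With T618I alone, 3 of the 8 rose (Clec5a, Clec4e and Clec4n), or 2 without Clec4n, and 3 fell (Clec12a, Clec4a2 and Mgl2), where 17.6% of all genes were called higher and 15.9% lower, 33.5% in all. With Asxl1-MT2 alone 2 rose (Clec12a and Clec4a2) and 0 fell, where 1.24% of all genes were called higher and 0.622% lower, 1.86% in all. At an unadjusted p under 0.05, 1 more receptor fell with Asxl1-MT2 alone, and DESeq2 made the same number of calls. Leaving out single libraries moved that count of 2 to between 0 and 3. With T618I in Asxl1-MT2 cells 5 rose, or 4 without Clec4n, and 2 fell, where 26.9% of all genes were called higher and 22.8% lower, 49.8% in all. The interaction was positive for 7 of 8, or 6 of 7 without Clec4n, and negative for 0, where 14.1% of all genes were called positive and 5.51% negative, 19.6% in all.

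**Figure D1:**
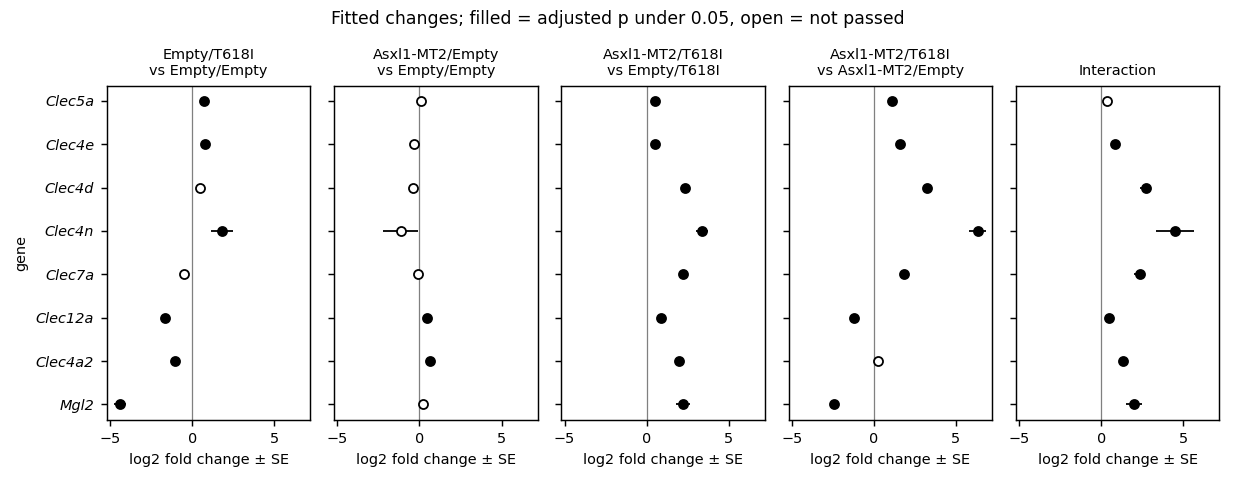
Log2 fold change ± SE on the x axis for the 8 tested receptors on the y axis, with 1 panel for each of the 5 comparisons; filled points passed an adjusted p under 0.05 and open points did not. In the third panel, Asxl1-MT2/T618I against Empty/T618I, all 8 points are filled and lie above 0, from 0.49 for Clec5a and Clec4e to 3.35 for Clec4n.

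Clec5a was the most abundant of the activating receptors. Libraries A to C of Empty/Empty held 167, 174 and 187 CPM, those of Empty/T618I 297, 298 and 286, those of Asxl1-MT2/Empty 179, 177 and 212, and those of Asxl1-MT2/T618I 482, 401 and 354. The T618I groups lay above both groups without it, the combined group lay above Empty/T618I, and the Empty/Empty and Asxl1-MT2/Empty libraries overlapped. It rose by 0.74 ± 0.103 with T618I alone (adjusted p = 2.21e-05) and by 0.49 ± 0.101 when Asxl1-MT2 was added (adjusted p = 0.000892). With Asxl1-MT2 alone the change was 0.11, with a 95% interval from -0.10 to 0.31. Clec5a was the only tested member without a called interaction, at 0.38 ± 0.144 (adjusted p = 0.0712, 95% interval 0.10 to 0.67). That call was gained without Asxl1-MT2/Empty C (adjusted p = 0.0356), without Asxl1-MT2/T618I C (adjusted p = 0.0204) and without the letter C libraries (adjusted p = 0.00653).

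Clec4e, the receptor for mycobacterial cord factor and for a nuclear protein released by dying cells, was likewise higher with T618I and highest in the combined group. Its Empty/Empty libraries A to C held 69.4, 64.0 and 69.3 CPM, those of Empty/T618I 118, 118 and 114, those of Asxl1-MT2/Empty 49.4, 51.5 and 61.2, and those of Asxl1-MT2/T618I 181, 167 and 143. No group overlapped another, and Asxl1-MT2/Empty was the lowest. Clec4e rose by 0.79 ± 0.0966 with T618I alone (adjusted p = 5.59e-06), by 0.49 ± 0.0938 when Asxl1-MT2 was added to T618I (adjusted p = 0.000439) and by 1.60 ± 0.0980 with T618I in Asxl1-MT2 cells (adjusted p = 5.53e-10). The value with Asxl1-MT2 alone, -0.32 ± 0.0992, did not pass (adjusted p = 0.138) and passed only without Asxl1-MT2/Empty C or without the 4 letter C libraries, among the 18 alternatives. The interaction was 0.81 ± 0.137 (adjusted p = 0.000471).

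Clec4d, the partner with which Clec4e forms a complex, was high in the combined group alone. Libraries A to C of Empty/Empty held 10.6, 10.5 and 13.6 CPM, those of Empty/T618I 20.0, 12.3 and 16.6, those of Asxl1-MT2/Empty 8.997, 8.98 and 8.98, and those of Asxl1-MT2/T618I 113, 85.2 and 50.1. The lowest combined library was above the highest of the other groups, and Empty/Empty overlapped Empty/T618I. Within the combined group library A held the highest level and library C the lowest. With T618I alone the change was 0.49 ± 0.255 and did not pass (adjusted p = 0.153), although it passed without Asxl1-MT2/T618I C and without the letter C libraries. Clec4d rose by 2.34 ± 0.227 when Asxl1-MT2 was added to T618I, a 5.08-fold change (adjusted p = 3.78e-07), and its interaction was 2.71 ± 0.355 (adjusted p = 6.34e-05).

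Clec4n, the Dectin-2 receptor for fungal mannans, was near the limit of detection in 3 groups. Libraries A to C gave 2, 5 and 0 counts for Empty/Empty, 9, 6 and 11 for Empty/T618I, 2, 1 and 0 for Asxl1-MT2/Empty, and 99, 91 and 63 for Asxl1-MT2/T618I. The combined group lay above all others, at 8.84 ± 2.08 CPM. Scaled to library size, its 253 counts were 10.3 times the 26 of Empty/T618I (95% counting interval 6.89 to 16.1) and 89.0 times the 3 of Asxl1-MT2/Empty (30.1 to 434). Such intervals hold counting error and no more, because copies made by PCR are not independent molecules. The rise when Asxl1-MT2 was added to T618I was called at an adjusted p of 1.52e-06. The call with T618I alone, 1.81 ± 0.667 (adjusted p = 0.0458), was lost without Empty/Empty A or C, Empty/T618I A or C, Asxl1-MT2/Empty B or Asxl1-MT2/T618I B, and without the letter C libraries. Its value was 1.28 without Empty/Empty C, 1.03 without the letter C libraries and 2.94 without Empty/Empty B. The interaction of 4.50 ± 1.17 (adjusted p = 0.0119) was lost without Empty/Empty B, with 3.38 and an adjusted p of 0.198.

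Clec7a, the beta-glucan receptor, resembled Clec4d. The Empty/Empty libraries A to C held 14.4, 13.1 and 11.1 CPM, those of Empty/T618I 9.04, 7.06 and 11.2, those of Asxl1-MT2/Empty 13.5, 12.3 and 9.78, and those of Asxl1-MT2/T618I 58.7, 39.8 and 28.7. The first 3 groups overlapped one another and the combined group lay above them. The change with T618I alone, -0.51 ± 0.242, did not pass (adjusted p = 0.121). It passed without Asxl1-MT2/T618I A, without the letter C libraries, with no low-count filter and with the compared groups alone (lowest adjusted p = 0.0118). Clec7a rose by 2.22 ± 0.225 when Asxl1-MT2 was added to T618I, a 4.67-fold change (adjusted p = 6.05e-07). Its interaction was 2.34 ± 0.326 (adjusted p = 0.000102).

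**Figure D2:**
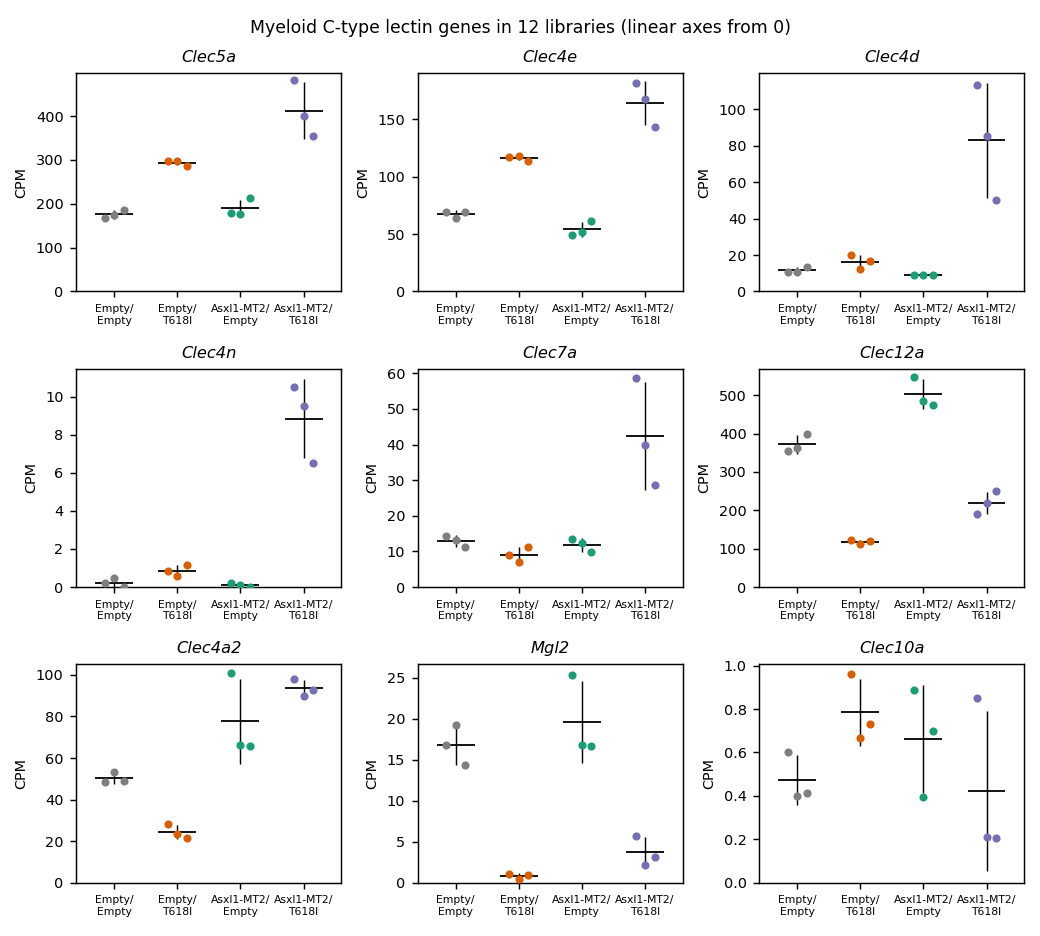
CPM of the 9 receptors on linear y axes from 0, with the 4 groups on the x axis; points are libraries A, B and C from left to right, horizontal lines are means and vertical lines are ± 1 SD (n = 3). Clec4d, Clec4n and Clec7a are high in Asxl1-MT2/T618I only, Clec5a and Clec4e also in Empty/T618I, and Clec12a and Mgl2 are lowest in Empty/T618I and higher in the groups without T618I.

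Both receptors with inhibitory tails fell with T618I alone. Clec12a, which binds uric acid crystals and is found on granulocyte and monocyte progenitors and their progeny, was the most abundant member in the cells without T618I. The Empty/Empty libraries A to C held 353, 363 and 399 CPM, those of Empty/T618I 122, 112 and 120, those of Asxl1-MT2/Empty 547, 485 and 475, and those of Asxl1-MT2/T618I 190, 219 and 249. The 4 groups did not overlap. Clec12a fell by 1.66 ± 0.0979 with T618I alone, to a level 3.15-fold lower (adjusted p = 9.88e-10), and fell by 1.20 ± 0.0957 with T618I in Asxl1-MT2 cells (adjusted p = 1.61e-08). It rose by 0.89 ± 0.0971 when Asxl1-MT2 was added to T618I (adjusted p = 1.44e-06), and the level in the combined group stayed below that of Empty/Empty in 3 of 3 libraries.

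Smaller Clec12a changes depended on single libraries. The rise of 0.43 ± 0.0940 with Asxl1-MT2 alone (adjusted p = 0.0234) was lost without Empty/Empty A or B or Asxl1-MT2/Empty A or B, with adjusted p up to 0.149. The interaction of 0.46 ± 0.135 (adjusted p = 0.0238) was lost without Empty/T618I B, Asxl1-MT2/Empty B or C, or Asxl1-MT2/T618I B or C. Without the letter C libraries of all 4 groups it was 0.26 (adjusted p = 0.132). In the combined group Clec12a was lowest in library A, the library in which Clec5a, Clec4e, Clec4d, Clec4n and Clec7a were highest.

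Clec4a2, an inhibitory receptor of dendritic and myeloid cells, fell with T618I alone and had its highest mean in the combined group. The Empty/Empty libraries A to C held 48.4, 53.2 and 49.0 CPM, those of Empty/T618I 28.1, 23.4 and 21.6, those of Asxl1-MT2/Empty 101, 66.3 and 65.6, and those of Asxl1-MT2/T618I 98.2, 89.8 and 92.5. Empty/T618I was the lowest group, and the groups with Asxl1-MT2 overlapped each other through Asxl1-MT2/Empty A. Clec4a2 fell by 1.04 ± 0.148 with T618I alone (adjusted p = 2.84e-05) and rose by 1.94 ± 0.146, or 3.83-fold, when Asxl1-MT2 was added to T618I (adjusted p = 2.41e-08). With T618I in Asxl1-MT2 cells the change was 0.27 ± 0.134 (adjusted p = 0.108), and it passed without Asxl1-MT2/Empty A, at 0.50 (adjusted p = 0.000988). The interaction was 1.31 ± 0.200 (adjusted p = 0.000223). The rise with Asxl1-MT2 alone, 0.63 ± 0.138 (adjusted p = 0.0252), was lost without any 1 of the Empty/Empty libraries and without Asxl1-MT2/Empty A, where it was 0.39 (adjusted p = 0.121).

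Per kilobase of the longest coding transcript, which puts genes on a common scale, the ratio of the summed levels of the 2 kinds of receptor differed between groups. The summed level of the 5 activating receptors was 88.4 ± 3.599 CPM per kb for Empty/Empty, 142 ± 3.45 for Empty/T618I, 84.1 ± 6.85 for Asxl1-MT2/Empty and 264 ± 56.7 for Asxl1-MT2/T618I. For Clec12a and Clec4a2 together it was 169 ± 9.38, 57.0 ± 2.998, 232 ± 23.8 and 125 ± 10.8 CPM per kb. The ratio of the inhibitory to the activating sum was 1.91 ± 0.0463 for Empty/Empty and 2.78 ± 0.439 for Asxl1-MT2/Empty. It was 0.402 ± 0.0122 for Empty/T618I and 0.497 ± 0.152 for Asxl1-MT2/T618I. The 6 libraries with T618I all had a ratio below 1 and the 6 without it a ratio above 1. The T618I groups overlapped, from 0.389 to 0.413 against 0.360 to 0.661. These sums follow from the values of single genes above and were not tested. In Empty/Empty, Clec12a held 149 of the inhibitory 169 CPM per kb and Clec5a 47.0 of the activating 88.4. The ratio there thus rests largely on Clec12a and Clec5a. Whether a ratio lies above or below 1 also depends on the transcript lengths used and on which genes are summed.

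**Figure D3:**
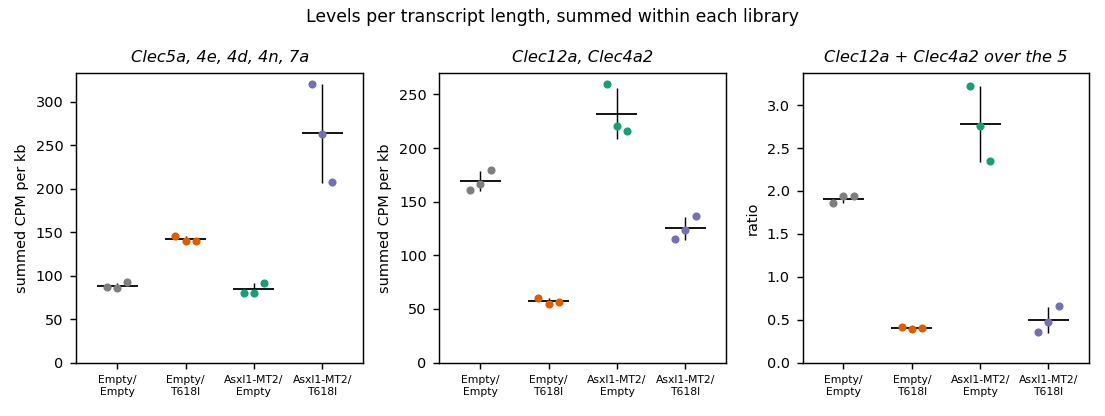
Summed CPM per kb of transcript for Clec5a, Clec4e, Clec4d, Clec4n and Clec7a (left), for Clec12a and Clec4a2 (middle), and the ratio of the second sum to the first (right), by group on the x axis; points are libraries, horizontal lines means and vertical lines ± 1 SD (n = 3). The ratio lies between 1.86 and 3.23 in the groups without T618I and between 0.360 and 0.661 in those with it.

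The order of single genes changed with it. In Empty/Empty the highest level per kb was that of Clec12a, at 149 ± 9.53 CPM per kb, followed by Clec5a at 47.0 ± 2.65 and Clec4e at 26.8 ± 1.22. In Empty/T618I it was Clec5a, at 78.3 ± 1.65, followed by Clec12a at 47.2 ± 2.16 and Clec4e at 46.3 ± 0.880, a difference smaller than the SD of Clec12a. Clec5a also led in Asxl1-MT2/T618I, at 110.0 ± 17.3, ahead of Clec12a at 87.6 ± 11.9, Clec4e at 65.1 ± 7.65 and Clec4d at 62.6 ± 23.9. The last pair differed by less than their SD. Clec4d was the sixth in both groups without T618I and the fourth in both groups with it.

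Of the galactose-type lectins, Mgl2 had the largest change with T618I alone of any member. The Empty/Empty libraries A to C held 16.8, 19.3 and 14.3 CPM, those of Empty/T618I 1.06, 0.382 and 0.939, those of Asxl1-MT2/Empty 25.4, 16.8 and 16.7, and those of Asxl1-MT2/T618I 5.73, 2.19 and 3.10. The groups without T618I overlapped each other and lay above both groups with it, and the combined group lay above Empty/T618I. Mgl2 fell by 4.39 ± 0.350 with T618I alone, 21.0-fold (adjusted p = 3.43e-08), from 500 counts to 24 over the libraries. It rose by 2.20 ± 0.433 when Asxl1-MT2 was added to T618I (adjusted p = 0.000587) and fell by 2.42 ± 0.268 with T618I in Asxl1-MT2 cells (adjusted p = 9.70e-07). The interaction was 1.98 ± 0.494 (adjusted p = 0.00949).

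Clec10a, the neighbouring gene and close relative of Mgl2, was hardly detected. Libraries A to C gave 6, 4 and 4 counts for Empty/Empty, 10, 7 and 7 for Empty/T618I, 9, 4 and 7 for Asxl1-MT2/Empty, and 8, 2 and 2 for Asxl1-MT2/T618I. The Empty/T618I libraries lay above those of Empty/Empty by a few counts, and all other pairs of groups overlapped. The ratio of Empty/T618I to Empty/Empty was 1.67 (95% counting interval 0.830 to 3.49), while Mgl2 fell in that comparison. The intervals of all 4 ratios between groups that differed in 1 construct included 1. A difference of Clec10a was not detectable at this depth.

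Marker lists of cell types differed between the groups, and not all of them moved in the direction of these receptors. In bulk RNA, fewer cells of a type and less RNA per cell cannot be told apart. The summed level of 10 neutrophil markers, all detected in every group, ranged from 1337 to 2263 CPM for Empty/Empty, 3617 to 4721 for Empty/T618I, 1837 to 2683 for Asxl1-MT2/Empty and 19767 to 27744 for Asxl1-MT2/T618I. Of these markers, 10 of 10 rose when Asxl1-MT2 was added to T618I, where 25.4% of all tested genes were called higher and 18.5% lower. In that comparison 6 of 8 tested monocyte and macrophage markers rose and 0 fell. Of 10 mast cell and basophil markers 0 rose and 7 fell. Of 5 tested megakaryocyte and erythroid markers 0 rose and 4 fell, and of 8 progenitor markers 1 rose and 1 fell. The 10 monocyte and macrophage markers summed to 586 to 670, 521 to 572, 745 to 829 and 1007 to 1392 CPM in the same order of groups. Of them, Mertk was at 0 in both groups without T618I and in Empty/T618I. The 10 dendritic markers summed to no more than 12.9 CPM in any library, with Siglech, Cd209a and Ccr7 at 0 in all groups. The 10 mast cell and basophil markers summed to 1113 to 1275, 3420 to 6232, 689 to 744 and 3364 to 3726 CPM, with Fcer1a at 0 in Empty/Empty. The 8 progenitor markers summed to 34599 to 43712 CPM for Empty/Empty, 16403 to 19473 for Empty/T618I, 38925 to 43559 for Asxl1-MT2/Empty and 14811 to 19403 for Asxl1-MT2/T618I. The 8 megakaryocyte and erythroid markers summed to 33.2 to 62.8 CPM without T618I and 113 to 249 with it, with Hba-a1 and Hbb-bs at 0 in all groups, and the 8 lymphoid markers to 12.1 to 23.1 and 35.4 to 90.9, with Cd3e, Ncr1 and Ms4a1 at 0. The 7 eosinophil markers summed to no more than 373 CPM in any library and the 5 stromal markers to no more than 341. The part of cell type composition in the receptor changes was not tested.

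The adaptors through which the activating receptors signal also rose when Asxl1-MT2 was added to T618I. Of 23 tested genes of adaptors and proximal signalling, 15 rose and 2 fell when Asxl1-MT2 was added to T618I. Over all tested genes 25.4% were called higher and 18.5% lower there. With T618I alone 8 rose and 3 fell, against 17.6% and 15.9% of all tested genes. With T618I in Asxl1-MT2 cells 14 rose and 3 fell, against 26.9% and 22.8%. A positive interaction was called for 9, against 14.1% of all tested genes. Fcer1g, the gamma chain used by Clec4e, Clec4d and Clec4n, was measured at 186, 167 and 149 CPM for Empty/Empty libraries A to C, 244, 176 and 219 for Empty/T618I, 164, 149 and 161 for Asxl1-MT2/Empty, and 531, 541 and 454 for Asxl1-MT2/T618I. The combined group lay above the others, and Fcer1g rose by 1.26 ± 0.112 when Asxl1-MT2 was added to T618I (adjusted p = 1.47e-07), with an interaction of 1.34 ± 0.158 (adjusted p = 3.03e-05). Its rise with T618I alone, 0.35 ± 0.112 (adjusted p = 0.0231), was lost without Empty/Empty B or C or Empty/T618I A, without the letter C libraries and with the compared groups alone.

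Tyrobp, the DAP12 adaptor of Clec5a, fell with T618I alone, where Clec5a rose. Libraries A to C gave 146, 147 and 121 CPM for Empty/Empty, 108, 89.8 and 88.1 for Empty/T618I, 183, 180.2 and 150 for Asxl1-MT2/Empty, and 421, 355 and 283 for Asxl1-MT2/T618I. Empty/T618I was the lowest group and the combined group the highest, with no overlap between them. Tyrobp fell by 0.53 ± 0.131 with T618I alone (adjusted p = 0.00437) and rose by 1.89 ± 0.133 when Asxl1-MT2 was added (adjusted p = 1.17e-08). Hcst, the DAP10 adaptor, went from 6.92 ± 0.990 CPM without Asxl1-MT2 to 13.7 ± 2.59 with it among T618I cells, and rose by 0.98 ± 0.200 between them (adjusted p = 0.000757). It was at 10.4 ± 1.44 CPM for Empty/Empty and 11.6 ± 2.94 for Asxl1-MT2/Empty. Hcst fell by 0.59 ± 0.204 with T618I alone (adjusted p = 0.0349), a call lost without Empty/Empty A or C or Empty/T618I B or C. With T618I in Asxl1-MT2 cells its change, 0.24 ± 0.189, did not pass (adjusted p = 0.309).

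Downstream, Syk went from 289 ± 18.2 CPM for Empty/T618I to 456 ± 58.3 for Asxl1-MT2/T618I, a rise of 0.66 ± 0.0876 (adjusted p = 1.40e-05), and its change with T618I alone, 0.18, did not pass (adjusted p = 0.133). Card9, which links Syk to NF-kB, rose by 0.34 ± 0.0941 in the same comparison (adjusted p = 0.00814), from 201 ± 12.1 to 254 ± 23.1 CPM. The Src family kinase Fgr had the largest changes of the list. Its level was 16.9 ± 1.17 CPM for Empty/Empty, 52.7 ± 10.7 for Empty/T618I, 18.9 ± 2.25 for Asxl1-MT2/Empty and 255 ± 49.6 for Asxl1-MT2/T618I. It rose by 1.64 ± 0.164 with T618I alone (adjusted p = 5.38e-07) and by 2.28 ± 0.147 when Asxl1-MT2 was added (adjusted p = 5.28e-09).

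**Figure D4:**
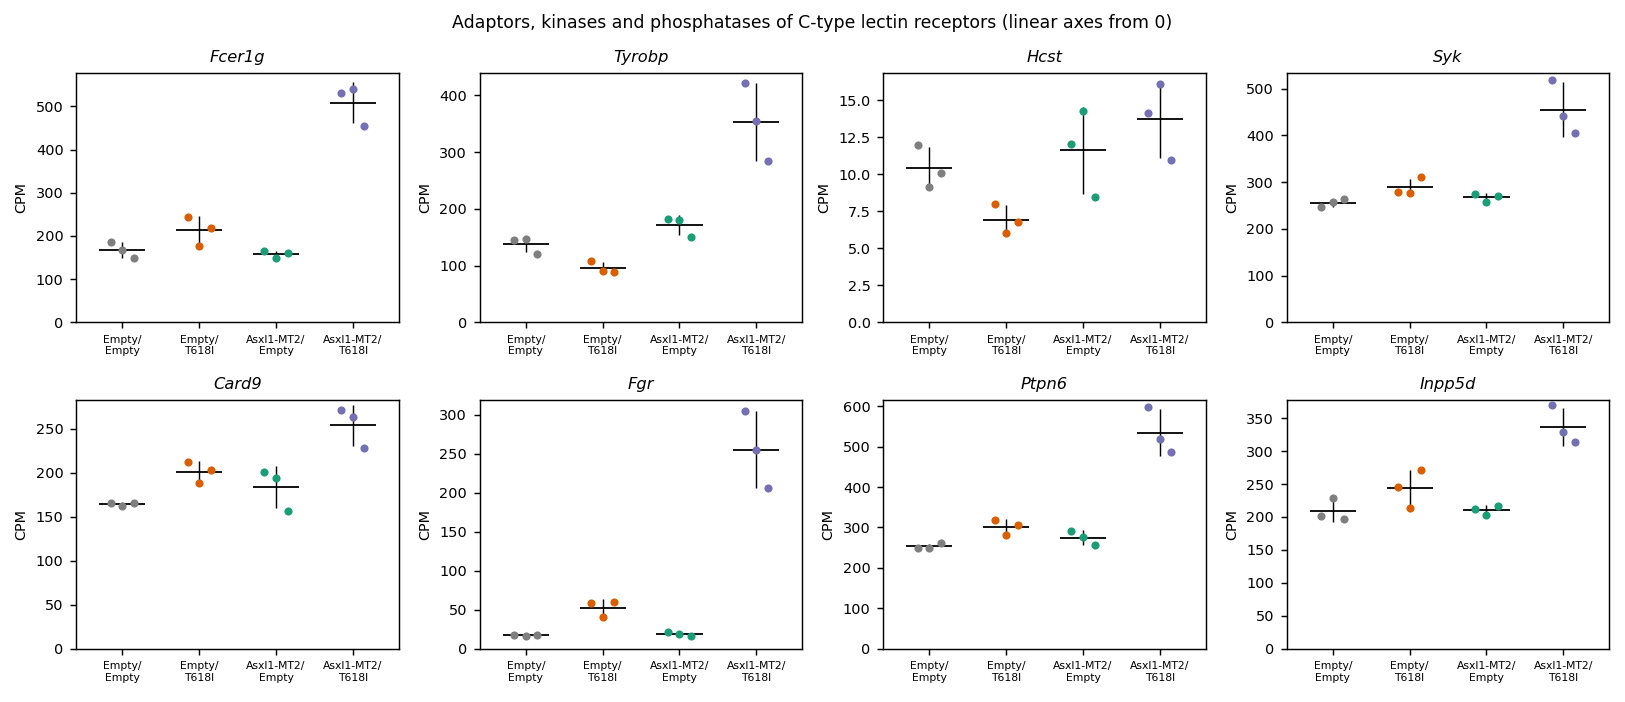
CPM of 5 adaptors and signalling genes, the kinase Fgr and 2 phosphatases on linear y axes from 0, by group on the x axis; points are libraries A, B and C from left to right, horizontal lines means and vertical lines ± 1 SD (n = 3). In all panels but that of Hcst, whose groups overlap, the 3 highest libraries are those of Asxl1-MT2/T618I.

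The phosphatases on which the inhibitory tails depend rose in the combined group too. Ptpn6, encoding SHP-1, went from 301 ± 19.3 CPM for Empty/T618I to 535 ± 58.4 for Asxl1-MT2/T618I, a rise of 0.83 ± 0.0865 (adjusted p = 9.10e-07). Inpp5d, encoding the lipid phosphatase SHIP-1, rose by 0.47 ± 0.0935 (adjusted p = 0.00065), from 244 ± 28.4 to 337 ± 29.1 CPM. Of 9 phosphatases and other brakes tested, 4 rose and 2 fell in this comparison, against 25.4% and 18.5% of all tested genes. With T618I alone 4 rose, against 17.6%, and with T618I in Asxl1-MT2 cells 5 rose, against 26.9%. With Asxl1-MT2 alone 0 changed, where 1.86% of all tested genes were called, so a count of 0 is near that share. For Asxl1-MT2 alone, 0 had an unadjusted edgeR p under 0.05 and DESeq2 called 0. Socs1, a feedback inhibitor of cytokine signalling, fell by 1.12 ± 0.222 when Asxl1-MT2 was added to T618I (adjusted p = 0.000643), from 13.5 ± 1.25 to 6.22 ± 2.17 CPM. Without T618I it was near 0, at 0.302 ± 0.0983 CPM for Empty/Empty and 0.298 ± 0.172 for Asxl1-MT2/Empty. It rose by 5.42 ± 0.361 with T618I alone (adjusted p = 4.05e-09) and by 4.33 ± 0.398 with T618I in Asxl1-MT2 cells (adjusted p = 9.31e-08). The combined group thus lay below Empty/T618I but above both groups without T618I.

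Most transcription factors and cytokines known as outputs of Syk and Card9 signalling were higher with T618I. Of 21 tested, 17 rose and 0 fell with T618I alone, against 17.6% and 15.9% of all tested genes. With T618I in Asxl1-MT2 cells 20 rose and 0 fell, against 26.9% and 22.8%. Both counts of risen genes hold Il1b, Cxcl2, Ccl2 and Il10, which were at or near 0 CPM without T618I. These passed the low-count filter through the groups with T618I and could hardly be called lower with it. A count without them was not made. When Asxl1-MT2 was added to T618I 11 rose and 2 fell, against 25.4% and 18.5%. For Asxl1-MT2 alone the share of all tested genes called was 1.86%. With Asxl1-MT2 alone 0 passed in edgeR or DESeq2, and 1 higher and 3 lower had an unadjusted edgeR p under 0.05. Nlrp3, the inflammasome sensor, measured 1.96 ± 0.0947 CPM for Empty/Empty, 4.73 ± 1.10 for Empty/T618I, 1.12 ± 0.0529 for Asxl1-MT2/Empty and 27.2 ± 8.23 for Asxl1-MT2/T618I, with a rise of 2.53 ± 0.212 when Asxl1-MT2 was added to T618I (adjusted p = 7.81e-08). Il1b, the cytokine that this sensor helps to mature, had 15 counts for Empty/Empty, 141 for Empty/T618I, 3 for Asxl1-MT2/Empty and 729 for Asxl1-MT2/T618I. The neutrophil chemokine Cxcl2 had 1, 50, 0 and 276 counts in the same order of groups. Ccl2, a monocyte chemokine, and the cytokine Il10 were at 0 counts in both groups without T618I, and at 168 and 36 counts for Empty/T618I and 81 and 28 for Asxl1-MT2/T618I. Between the latter groups neither Ccl2, at -0.97 ± 0.413 (adjusted p = 0.0747), nor Il10, at -0.27 ± 0.417 (adjusted p = 0.629), passed. That of Ccl2 passed with no low-count filter, with the letter block and without Empty/T618I B. Its Empty/T618I libraries A to C gave 85, 21 and 62 counts. Whether the receptors had a part in these outputs was not tested.

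Most other genes with a C-type lectin domain were too low to test. Of 51 listed, 15 were tested, of which 2 rose and 10 fell with T618I alone, against 17.6% and 15.9% of all tested genes. When Asxl1-MT2 was added to T618I 8 rose and 0 fell, against 25.4% and 18.5%. With T618I in Asxl1-MT2 cells 3 rose and 6 fell, against 26.9% and 22.8%. With Asxl1-MT2 alone 0 changed, near the share of 1.86% called over all tested genes. With Asxl1-MT2 alone DESeq2 also called 0, and 2 higher and 1 lower had an unadjusted edgeR p under 0.05. The median change when Asxl1-MT2 was added to T618I was 0.48 for these 15. For the 8 receptors above it was 2.07, or 1.94 without Clec4n. Receptors and list were both chosen with earlier results of these data known, so no conclusion is drawn from this difference. Klrg2 rose by 2.09 ± 0.207 with T618I alone (adjusted p = 4.63e-07), and Clec11a, a secreted growth factor of stem cells, fell by 2.06 ± 0.396 (adjusted p = 0.000554). Cd302, at 0.435 ± 0.273 CPM for Empty/T618I and 2.72 ± 0.693 for Asxl1-MT2/T618I, rose by 2.63 ± 0.469 (adjusted p = 0.000239). It summed to 6 counts for Empty/Empty, 13 for Empty/T618I, 13 for Asxl1-MT2/Empty and 78 for Asxl1-MT2/T618I. Cd302 thus passed the low-count filter through the combined group, and the 8 that rose include it. Clec2i rose by 1.56 ± 0.206 in the same comparison (adjusted p = 1.24e-05). Of 3 positive interactions, that of thrombomodulin (Thbd) was 1.21 ± 0.199 (adjusted p = 0.000402). The others were Clec2d, lost without Empty/Empty A, Empty/T618I B, Asxl1-MT2/Empty B or Asxl1-MT2/T618I B, and Clec2i, lost without Empty/Empty A or B, Empty/T618I A or B, Asxl1-MT2/Empty B or C, or Asxl1-MT2/T618I A or B (adjusted p up to 0.0790).

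The Clec4 interval of chromosome 6 did not change as a block. In order along the chromosome it holds Clec4a2, Clec4b2, Clec4n, Clec4d and Clec4e. With T618I alone the first pair fell, Clec4a2 by 1.04 and Clec4b2 by 1.45 ± 0.276 (adjusted p = 0.000516), while Clec4e at the other end rose by 0.79. When Asxl1-MT2 was added to T618I all 5 rose, by 1.94, 1.44, 3.35, 2.34 and 0.49 in that order, although Clec4d and Clec4e, whose ends are 6.523 kb apart, rose by different amounts. Clec4b2, another receptor of the Clec4a2 family, gave 5.24, 7.06 and 8.46 CPM for Empty/Empty libraries A to C, 2.31, 2.67 and 2.61 for Empty/T618I, 14.5, 9.08 and 7.09 for Asxl1-MT2/Empty, and 6.37, 7.62 and 6.71 for Asxl1-MT2/T618I. The Empty/T618I libraries were the lowest. Between Clec12a and Clec7a lie Clec12b, Clec1b, Clec9a and Clec1a, none of which had more than 44 counts in any group.

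**Figure D5:**
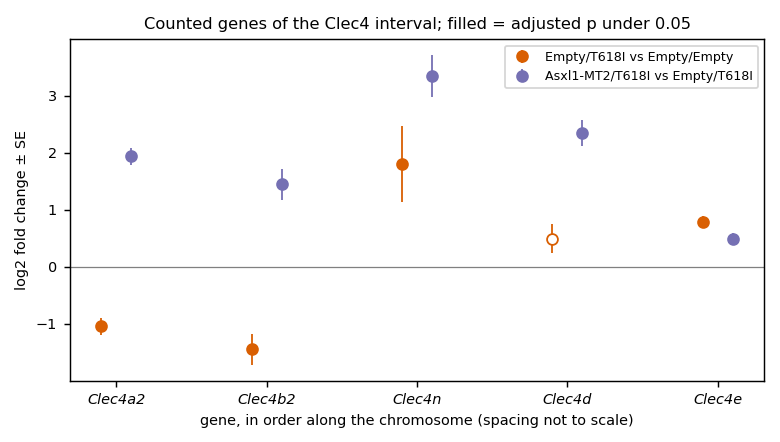
Log2 fold change ± SE on the y axis for the 5 counted genes of the Clec4 interval, in chromosomal order on the x axis (not to scale), for Empty/T618I against Empty/Empty and Asxl1-MT2/T618I against Empty/T618I; filled points passed an adjusted p under 0.05 and the open point did not. The purple points all lie above 0, while the orange points run from -1.45 for Clec4b2 to 1.81 for Clec4n.

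The genes most like each receptor over the 12 libraries were taken by Pearson's r of log2 CPM, as a description. The libraries fall into 4 groups of 3, so r mostly follows the group means. For Clec12a these were Myo18b (r = 0.995), Atp1b1 (0.995) and Mreg (0.988), and for Clec4a2 Inpp5j (0.987), Rab3d (0.985) and Hsd11b1 (0.985). Clec4d was closest to Osbpl9 (0.993), Clec4e to Mcam (0.993) and Clec5a to Rnf11 (0.992). Clec4n was closest to Fam102a (0.989), with the NF-kB subunit Relb the third at 0.984. Clec7a was closest to Avpr2 (0.987), followed by the kinase Prkcd (0.984), and Mgl2 to Dock9 (0.986).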

How the data were processed

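The authors deposited raw counts of reads per gene symbol, 1 column for each library, unscaled. The submitters' processing notes name mm10, Trimmomatic, STAR and DESeq2, without a version or role. The counting tool, annotation and strand setting are not given in the sources used here. Groups came from the sample titles. With edgeR 4.0.16 in R 4.3.3, symbols were filtered (filterByExpr, which kept 99.9% of counts), scaled with TMM factors and fitted over all 12 libraries with a mean per group, and the p-values of its quasi-likelihood test were adjusted after Benjamini and Hochberg. The fit was tested on simulated data. CPM used TMM-scaled totals. Intervals of 95% came from standard errors with normal limits, or for ratios of few counts from exact binomial limits. Normal limits can be narrower than the quasi-likelihood test allows, and they are not adjusted for the number of genes. Alternatives were RLE factors, DESeq2 1.42.0, no filter, fewer groups, a letter block and leaving out libraries.

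The members and gene lists were chosen with earlier results of these data known. Every member was named. From each list of other genes at most the 3 called genes with the largest changes were named per comparison, with Fcer1g, Tyrobp, Hcst, Syk, Card9, Ptpn6, Inpp5d and the label checks whatever their values. A result that this rule would name is not reported here. Nothing says that libraries came from separate cultures, so p-values measure the spread between libraries, which may be technical.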

Additional observations from a re-analysis of the deposited data

Results flagged for a closer look

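For 7 receptors, or 6 without Clec4n, the log2 change with T618I in Asxl1-MT2 cells differed from that in Empty cells by the interaction test of edgeR. The difference was 0.46 for Clec12a, 1.31 for Clec4a2, 2.71 for Clec4d, 0.81 for Clec4e, 4.50 for Clec4n, 2.34 for Clec7a and 1.98 for Mgl2. The call for Clec12a was lost under 6 of 17 alternatives and that for Clec4n without Empty/Empty B. For Clec4d, Clec4e and Clec4n both fitted changes were positive and the one in Asxl1-MT2 cells was the larger. That of Clec4d in Empty cells, 0.49, did not pass its own test. For Clec12a and Mgl2 both were negative and the one in Asxl1-MT2 cells was the smaller. For Clec4a2 and Clec7a the fitted sign differed between Empty and Asxl1-MT2 cells, at -1.04 against 0.27 and -0.51 against 1.83. Of those 4 values the first and the last passed their own test.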

How the results depend on the processing

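Each of 40 values (8 receptors in 5 comparisons) was recomputed under up to 18 alternatives, 17 for the interaction. Of the 710 values obtained, 675 stayed on their side of the threshold, 22 lost the call, 13 gained it and 0 called values changed sign. With Asxl1-MT2 alone the uncalled values of Mgl2 and Clec7a changed sign, to -0.0089 without Asxl1-MT2/Empty A and to 0.0048 without Asxl1-MT2/Empty C. The number of receptors called stayed at 8 when Asxl1-MT2 was added to T618I, and ranged from 5 to 7 (6 in the report) for T618I alone, from 7 to 8 for T618I in Asxl1-MT2 cells and from 6 to 7 for the interaction. For Asxl1-MT2 alone it was 2 and ranged from 0 to 3 when single libraries were left out, being 0 without Empty/Empty A or B or Asxl1-MT2/Empty A and 1 without Empty/Empty C or Asxl1-MT2/Empty B, and the number of all genes called, 215, ranged from 60 to 276. It was 359 with no low-count filter and 386 without the letter C libraries. The cause was not tested.

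The 18 correlations between same-letter libraries of their deviations from the group means lay between -0.06 and 0.22, and 7 were over 0.1, so only some same-letter libraries deviated together and the letters were not taken to pair the samples. With the column letter as a replicate block the receptors called numbered 6, 2, 8, 8 and 7 in the order T618I alone, Asxl1-MT2 alone, Asxl1-MT2 with T618I, T618I with Asxl1-MT2 and interaction. The call gained was that of Clec4a2 with T618I in Asxl1-MT2 cells, at 0.29 (adjusted p = 0.0369), and all genes called for Asxl1-MT2 alone numbered 317. Depth limits Clec4n outside the combined group and Clec10a in all groups.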
